A study of Danio rerio with 4 samples.

Results

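Whole zebrafish retina was profiled by RNA-seq of total RNA after injury and treatment with cyclopamine, and the genes that the authors listed as higher or lower than in uninjured retina are described here. The injured fish were wild type, 10 months old, and were dipped in 10 μM cyclopamine for 4 days post-injury (dpi). The uninjured fish were wild type, 10 months old, and received no agent. Each condition had 1 library, of 4 in the series, so nothing below has a replicate check and no test across samples was possible. The members are the unique identifiers of 2 deposited lists, which give an identifier and a symbol for each gene and no level. Of the 2543 genes in any deposited list or table of the series, 1390 were in a cyclopamine list. Of these, 643 were only in the higher list, 735 only in the lower list, and 12 in both, which were set apart. The threshold behind the lists is not given in the sources used here. Against the 29201 identifiers of the gene-name table, 2.04% were in the higher list and 2.26% in the lower list, with genes in both directions counted in each, and the share of each gene group below is read beside these values. Injury and cyclopamine both separate the 2 libraries, so they cannot be told apart.

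Cyclopamine is a plant alkaloid that blocks Smoothened, the membrane protein that carries the Hedgehog signal to the Gli transcription factors. In zebrafish, Müller glia, the radial support cells of the retina, respond to injury by dedifferentiating and dividing to give progenitors that replace lost neurons. Sonic hedgehog is a secreted ligand of this pathway, and the study examined its part in that response.

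None of the 25 genes of the Hedgehog pathway list was in a cyclopamine list, the ligand genes *shha* and *shhb*, the receptor gene *ptch1*, *smo* and *gli1* included. Of 34 Notch pathway genes, only *her12*, a hairy-related repressor gene, was listed, as lower. A gene that is absent from these lists may have changed without passing the authors' threshold, or may have been too low to be called, so absence does not show an equal level.

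Of 7 gene symbols that the study names for the injury response, 2 were in the higher list and 5, *foxn4*, *insm1a* and *her4.1* among them, were in neither list. *mmp9*, a secreted metalloproteinase that cuts matrix proteins, and *zic2b*, a zinc-finger transcription factor, were the ones listed as higher. That call sets injured retina with cyclopamine against uninjured retina, so it does not give the effect of the drug. For injured retina with Shh signaling blocked, the study reports a fall of *zic2b* and a rise of *mmp9*, which is another comparison. The lists hold no level for the cyclopamine library. The only levels in the deposited tables for these genes are from the other injured libraries, which were compared with the same uninjured library. *mmp9* had 85.7 FPKM per gene at 4 dpi without cyclopamine and 0.363 FPKM in uninjured retina. *zic2b* had 14.2 FPKM at 4 dpi without cyclopamine and 0.947 FPKM in uninjured retina. Both uninjured values were below the median of the higher genes that have one, 2.15 FPKM. The study's qPCR oligonucleotides for *mmp9* and β-actin, which is given there with the identifier of *actb1*, are shown because both genes were in the higher list. They are written 5′ to 3′, with no part in capitals.
MMP9 F: ggagaaaacttctggagacttg
MMP9 R: cactgaagagaaacggtttcc
beta-actin F: gcagaaggagatcacatccctggc
beta-actin R: cattgccgtcaccttcaccgttc
*actb1*, a cytoplasmic actin gene, had 664.5 FPKM at 4 dpi without cyclopamine and 109.3 FPKM in uninjured retina. Its near-identical copy *actb2* was also listed as higher, and reads can be shared between the copies.

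**Figure D1:**
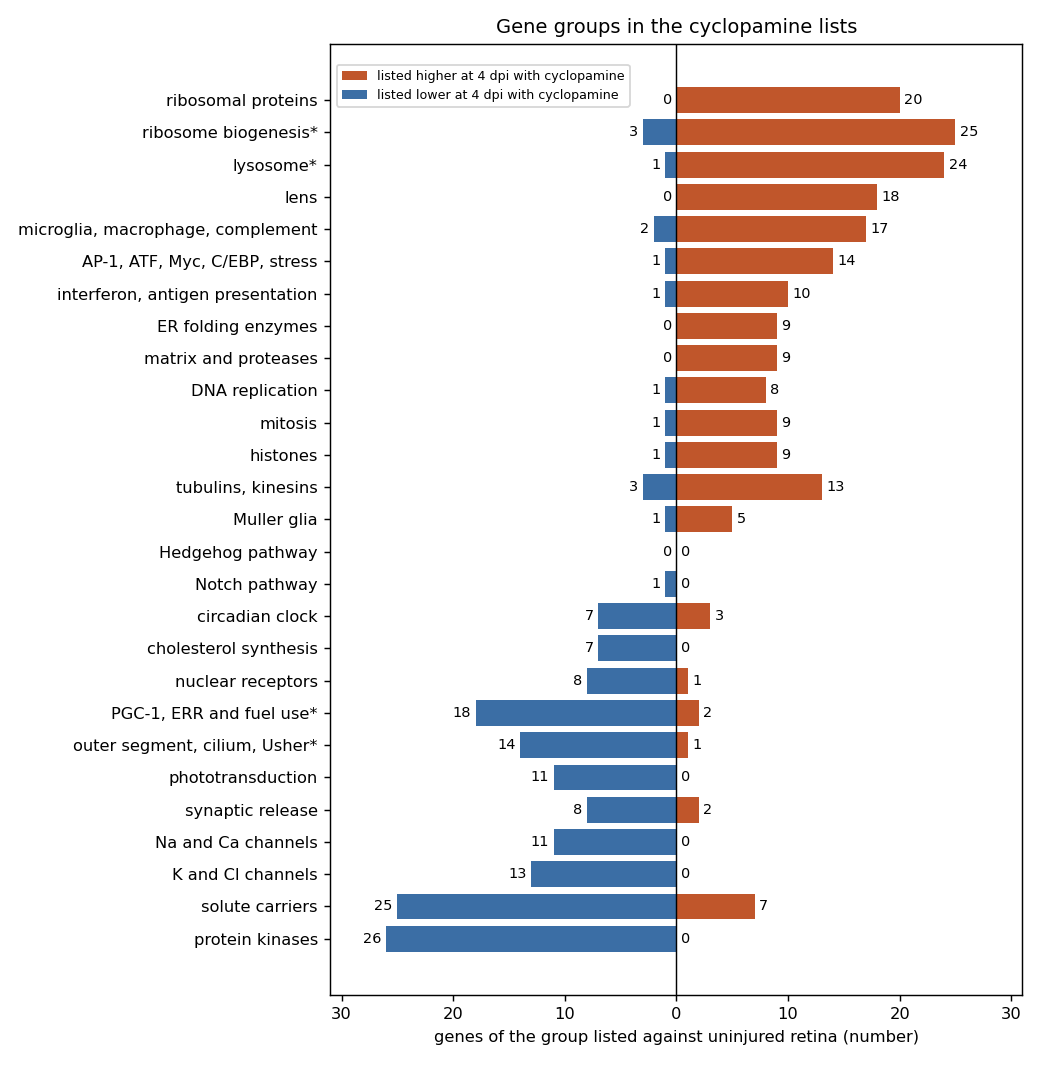
Number of genes of each group listed as higher (bars to the right) and lower (bars to the left) at 4 dpi with cyclopamine, against uninjured retina. An asterisk marks groups drawn up after the lists were read. Ribosome, lysosome, lens and injury-response groups lie almost wholly to the right. The Hedgehog pathway has no bar, and with 25 genes few or none would be listed at the overall shares. Channel, phototransduction, fuel-use and protein kinase groups lie mainly to the left. The protein kinases are those matched by symbol, which leaves out some kinase genes listed as higher.

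The higher list held a large set of genes for making ribosomes. Of 83 cytosolic ribosomal protein genes, 20 (24.1%) were in the higher list and 0 in the lower list. They came from both subunits, with *rpl15*, *rpl5a* and *rpl34* of the large one and *rps12*, *rps15a* and *rps8a* of the small one. All 20 had a gene-level value in the 4 dpi tables, with 146.4 to 742.1 FPKM at 4 dpi without cyclopamine and 26.9 to 193.8 FPKM in uninjured retina. The median over the 354 higher genes with such a value was 19.3 FPKM at 4 dpi without cyclopamine and 2.15 FPKM in uninjured retina, so all 20 were above it in both libraries. Of 93 genes of ribosome biogenesis, a list drawn up after the lists were read, 25 (26.9%) were in the higher list and 3 in the lower list. The higher ones included *dkc1* and *nhp2*, which act in RNA pseudouridylation, *nop2* and *ftsj3*, rRNA methyltransferase genes, and *pes*, *ppan*, *rrs1*, *bms1* and *wdr3*, which act in subunit assembly. The lower ones were *lsg1*, *noc4l* and *polr1c*. In either list were 0 of 50 genes of mitochondrial respiratory complex I and 0 of 26 of complexes II and III. Of the ATP synthase, 0 of 20 were listed. Of all identifiers, 2.04% were listed as higher and 2.26% as lower, so few genes of sets this small would be listed at those shares. Whether these counts of 0 differ from the overall shares was not tested. Of cytochrome c oxidase a gene named COX7A2 was listed as higher, and of the mitochondrial ribosomal proteins *mrpl22* alone was listed, as higher. *mycb*, *mych* and *myclb*, of the Myc family that drives growth genes, were listed as higher as well.

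Protein folding in the endoplasmic reticulum gave 9 higher genes of 16 (56.2%) and 0 lower. They were the disulphide isomerase genes *pdia3*, *pdia4*, *pdia6* and *p4hb*, the calreticulin genes *calr3a* and *calr3b*, and *hsp90b1*, *hyou1* and *ppib*. On the list of heat shock and unfolded protein response genes, 7 of 20 for the endoplasmic reticulum (35.0%) and 2 of 30 for the cytosol (6.67%, *dnaja1* and *dnajb1b*) were higher. Over all 135 chaperone and cyclophilin genes by symbol, 9 (6.67%) were higher and *dnajb12b* was lower.

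Lysosomal and phagocyte genes were a further block of the higher list. Of 18 cathepsin genes, 8 (44.4%) were in the higher list and 0 in the lower list: *ctsa*, *ctsba*, *ctsc*, *ctsd*, *ctsh*, *ctsk*, *ctsla* and *ctsz*. *ctsd*, an aspartic protease of the lysosome, had 196.8 FPKM at 4 dpi without cyclopamine and 57.1 FPKM in uninjured retina, and *ctsla* had 190.4 and 41.0 FPKM. Over 67 lysosomal genes, a list drawn up after the lists were read, 24 (35.8%) were listed as higher, among them *lgmn*, *npc2*, *tpp1*, *cd63* and the proton pump subunit gene *tcirg1b*. *psap*, the precursor of the sphingolipid activators, was the 1 lower gene. Of 75 genes of microglia, macrophages and complement, 17 (22.7%) were in the higher list and 2 (2.67%) in the lower list. The higher ones included *apoeb*, the lipid carrier of microglia and glia, *mpeg1.1*, a perforin-like macrophage gene, *ptprc*, the leukocyte phosphatase CD45, *coro1a*, *c1qc* and *c7a*. *apoeb* had 2111 FPKM at 4 dpi without cyclopamine and 233.6 FPKM in uninjured retina, above every other named gene of the higher list that codes for a protein. The lower ones included *p2ry12*, the purine receptor of resting microglia in mammals. The phagocyte list thus did not move as 1 block. In bulk retina, a change in the number of cells of a type and a change in RNA per cell cannot be told apart.

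Signals and transcription factors of inflammation were listed with them. Of 16 AP-1 and ATF genes, 6 (37.5%) were listed as higher, namely *atf3*, *atf5a*, *fosab*, *jun*, *junba* and *junbb*. Over all 38 Fos, Jun and ATF genes by symbol, these 6 were 15.8%. *jun* had 90.9 FPKM at 4 dpi without cyclopamine and 6.21 FPKM in uninjured retina, and *atf3* had 26.6 and 0.952 FPKM. The immediate early gene *egr1* was in the opposite list, as lower. *cebpb*, *cebpd*, *klf6a* and the feedback inhibitor of cytokine signalling *socs3b* were listed as higher. Of 185 chemokine, interleukin and receptor genes, 9 (4.86%) were higher, including the chemokine genes *ccl34a.3*, *ccl34a.4*, *ccl34b.8*, *cxcl18b* and *cxcl8b.1*. In the lower list were 5 genes of this family, 4 of them annotated (2.16%), including the chemokine gene *ccl39.7*. Of 51 genes of interferon signalling and antigen presentation, 10 (19.6%) were listed as higher. These included the factors *stat1b*, *irf8* and *irf9*, the ubiquitin-like *isg15* and the antiviral enzyme gene *rsad2*. *helz2*, an interferon-induced helicase gene, was listed as lower. *isg15* had 88.5 FPKM at 4 dpi without cyclopamine and 5.49 FPKM in uninjured retina. Of 9 neutrophil genes, *lect2l*, *npsn* and *mmp9* were listed as higher.

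Müller glia genes were also in the higher list. Of 26 Müller glia markers, 5 (19.2%) were listed as higher: *gfap* and *vim*, which code for intermediate filaments, *fabp7a*, a lipid-binding protein of radial glia and progenitors, *cx43*, a gap junction protein, and *apoeb*. *fabp7a* had 1191 FPKM at 4 dpi without cyclopamine and 52.0 FPKM in uninjured retina. *gfap* had 84.5 and 10.2 FPKM, and *vim* had 95.6 and 15.7 FPKM. *ca2*, the carbonic anhydrase of mature Müller glia, was listed as lower. Of 23 other genes that fish Müller glia are known to use after injury, *hbegfa*, *socs3b* and *sox11b* (13%) were listed as higher, *mdka*, a heparin-binding growth factor gene, was listed as lower, and 19 were in neither list.

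Cell division genes were present in the higher list with cyclopamine. Of 55 genes of DNA replication and nucleotide supply, 8 (14.5%) were listed as higher, which were *mcm4* and *mcm5* of the replicative helicase, *pold1*, *rfc4*, *fen1*, *lig1*, *uhrf1* and *rrm1*. *impdh1a*, an enzyme gene of guanine nucleotide synthesis, was listed as lower. Of 52 mitosis genes, 9 (17.3%) were listed as higher, including *mki67*, *kif11*, *ttk*, *cenpf*, *anln* and *ccnd1*, and *cenpe* was listed as lower. *mki67* had 23.6 FPKM at 4 dpi without cyclopamine and 0.339 FPKM in uninjured retina, and *mcm5* had 16.1 and 0.448 FPKM. These low uninjured values were shared by all 9 higher mitosis genes, whose highest was 3.09 FPKM. Packaging proteins of chromatin accompanied them. The HMG-box genes *hmgb1a*, *hmgb1b*, *hmgb2a* and *hmgb2b*, *hmgn2*, *ssrp1a* and 9 histone genes were listed as higher, against *hmga1b* and 1 histone gene as lower. Of the 9 higher histone genes, 5 are found by the symbol in the list alone, 4 are matched to a protein-coding RefSeq gene, and 2 are among the 32 histone genes of the gene-name table (6.25%). The histone genes are near-identical copies that share reads, so which copy changed is uncertain. Of 120 tubulin, stathmin and motor genes, 13 (10.8%) were higher and 3 (2.5%), *dnah9l*, *kif21b* and *tubgcp5*, were lower, with *tuba1a* at 263.2 FPKM at 4 dpi without cyclopamine and 14.2 FPKM in uninjured retina. Of 145 actin, actin-binding and myosin genes, 15 (10.3%) were higher, such as *arpc1b* and *arpc2* of the actin-nucleating complex, and 6 (4.14%) were lower, such as *myh10*. *marcksa*, *marcksb* and *marcksl1a* were listed as higher, which is 3 of 4 genes of that family. Of 61 genes of the extracellular matrix and its proteases, 9 (14.8%) were in the higher list and 0 in the lower list, with *fn1a* (fibronectin), *sparc*, *col1a1b*, *col12a1a*, *loxl2b* and *mmp14b* beside *mmp9* and the cathepsins *ctsk* and *ctsla*. Of 32 genes of histone modification and remodelling, *ruvbl2* was listed as higher and *hdac5*, *mier1a* and *supt5h* as lower. Of 32 genes of iron, redox and cell stress, *gpx4b* and *txn* were listed as higher and *prdx1* as lower. Over 62 genes of the ferritin, peroxiredoxin and thioredoxin family by symbol, 7 (11.3%) were higher and 2 (3.23%) were lower.

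**Figure D2:**
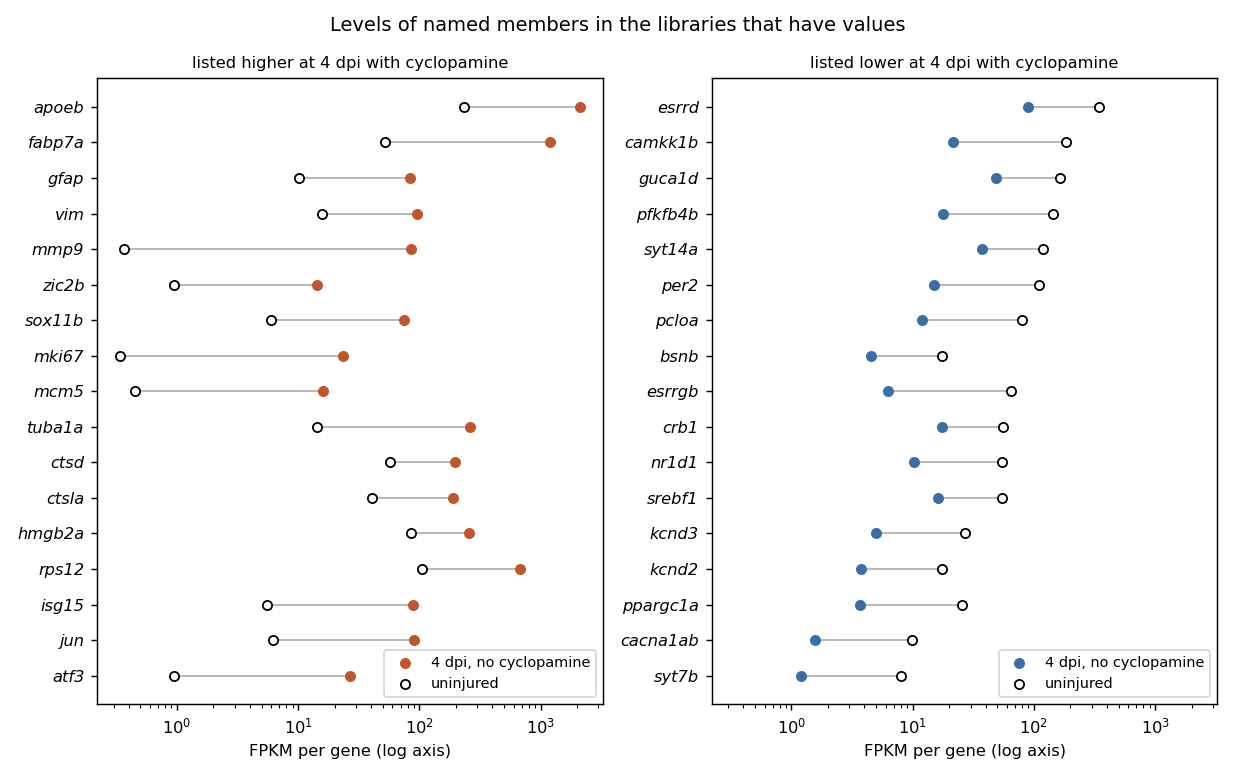
FPKM per gene (log axis) at 4 dpi without cyclopamine (filled) and in uninjured retina (open) for 34 named members that have a gene-level value, split by the cyclopamine list they were in. No level with cyclopamine is shown because the lists give none. *mmp9* has the widest gap on the left, with 85.7 and 0.363 FPKM, and *esrrd* has the highest uninjured level on the right, with 343.9 FPKM.

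Genes of tissues next to the retina were in the higher list. Of 54 lens genes, 18 (33.3%) were in the higher list and 0 in the lower list, including the lens crystallin genes *cryaa*, *cryba4*, *crybb3* and *crygs2*, the fibre membrane genes *lim2.1*, *lim2.3* and *lim2.4*, and *pitx3*. Of the 15 that have a gene-level value, 11 were listed at 0 in uninjured retina and the highest uninjured value was 1.97 FPKM. At 4 dpi without cyclopamine the 15 ran from 1.23 to 69.2 FPKM. Of 33 genes matched as keratins by symbol, 7 (21.2%) were listed as higher. Among them, *krt8* had 166.4 FPKM at 4 dpi without cyclopamine and 28.3 FPKM in uninjured retina. The match took in *icn*, which is not a keratin or filament gene, with 303.5 and 42.3 FPKM. Of 28 genes of the corneal and surface epithelium, *krt8*, *icn* and *krt18a.1* were listed as higher and *grhl3*, an epithelial transcription factor gene, as lower. Of 17 retinal pigment epithelium genes, *pmelb* was listed as higher. No endothelial gene of 19 and no skeletal muscle gene of 29 was in either list. Of 15 red blood cell genes *alas2* was listed, as lower. Over 9 hemoglobin genes by symbol, a gene named HBZ was listed, as higher. The part of lens and surface epithelium in the other results was not tested. The labelled tissue cannot be checked against its markers in full, because the lists hold called genes only.

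Genes of neuronal excitability were listed mainly as lower. Of the potassium and chloride channel genes, 13 were in the lower list and 0 in the higher list, and 11 of these are among the 159 in the gene-name table (6.92%). They included the A-type channel genes *kcnd1*, *kcnd2* and *kcnd3*. *kcnd2* had 3.73 FPKM at 4 dpi without cyclopamine and 17.5 FPKM in uninjured retina, and *kcnd3* had 5.02 and 27.0 FPKM. Of the sodium, calcium and cyclic-nucleotide-gated cation channel genes, 11 were in the lower list and 0 in the higher list, 9 of them among 126 in the gene-name table (7.14%). *cacna1ab*, a presynaptic calcium channel gene, had 1.57 FPKM at 4 dpi without cyclopamine and 9.93 FPKM in uninjured retina. Of 47 glutamate receptor genes, 5 (10.6%) were listed as lower, among them *grik1a*, *grin1a* and *grm4*. Of the GABA receptor genes, *gabbr1a*, *gabrd* and a gene named GABRA4 were listed as lower.

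Synaptic release followed the same direction. Of 136 genes of the synaptic vesicle and its release, 8 (5.88%) were in the lower list and 2 (1.47%) in the higher list. The lower ones included the active zone scaffold genes *bsnb* and *pcloa* and the calcium sensor genes *syt2a*, *syt7a*, *syt7b* and *syt14a*. *pcloa* had 12.0 FPKM at 4 dpi without cyclopamine and 79.8 FPKM in uninjured retina. Axon guidance receptors and ligands of the ephrin, plexin, semaphorin and slit families gave 7 lower genes and 0 higher. Of the lower ones, 6 are among the 86 in the gene-name table (6.98%). Of 47 markers of single classes of inner neuron, *ompa* and *cabp5a* (4.26%) were lower and *gap43* (2.13%), a growth cone protein gene, was higher.

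Most photoreceptor genes were in neither list, and those listed were mainly lower. Of 87 opsin, retinoid and phototransduction genes, 11 (12.6%) were in the lower list and 0 in the higher list. They included the red cone opsin gene *opn1lw2*, the cone phosphodiesterase gene *pde6c*, *gucy2f* and the guanylate cyclase activator genes *guca1d* and *guca1e*, the rod arrestin gene *sagb*, and the non-visual opsin genes *valopa* and *tmtops2a*. *guca1d* had 48.4 FPKM at 4 dpi without cyclopamine and 164.9 FPKM in uninjured retina. By cell type, 5 of 31 cone genes (16.1%) and 2 of 26 rod genes (7.69%) were listed as lower. *tbx2b* was the 1 cone gene listed as higher, and *arr3b*, a cone arrestin gene, was in both directions. Of 57 genes of the outer segment, cilium and Usher adhesion complex, a list drawn up after the lists were read, 14 (24.6%) were listed as lower and 1 (*prom1b*) as higher. These included *adgrv1*, *pcdh15b* and *myo3a* of the adhesion complex, *crb1* and *impg2b* of the adherens belt and the matrix around photoreceptors, *bbs4*, *bbs9*, *inpp5e* and *arl3l2* of the cilium, and *cngb1a*, *gucy2f*, *slc24a1* and *slc24a2* of the outer segment. *crb1* had 17.4 FPKM at 4 dpi without cyclopamine and 55.6 FPKM in uninjured retina.

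Fuel use and its regulators formed a further group of the lower list. Of 14 genes for the PGC-1 coactivators, the ERR receptors and their partners, 7 (50.0%) were listed as lower, on a list drawn up after the lists were read: *ppargc1a*, *ppargc1b*, *perm1b*, *pparaa*, *esrrd*, *esrrgb* and a gene named ESRRB. These proteins switch on mitochondrial and oxidative genes. *pprc1*, the third PGC-1 family gene, was listed as higher. *esrrd* had the highest uninjured level of the 261 lower genes with a gene-level value, at 343.9 FPKM, with 89.3 FPKM at 4 dpi without cyclopamine. *ppargc1a* had 3.66 FPKM at 4 dpi without cyclopamine and 25.4 FPKM in uninjured retina. Of 38 genes of glycolysis and glycogen, on that same list drawn up afterwards, 5 (13.2%) were listed as lower. They were *aldoaa*, *eno1a*, *eno1b*, *gys1* and *pfkfb4b*. *hk2*, the inducible hexokinase gene, was listed as higher (2.63%). *pfkfb4b* had 17.8 FPKM at 4 dpi without cyclopamine and 145.0 FPKM in uninjured retina. Of 20 creatine, aspartate and mitochondrial genes, also on the list drawn up after the lists were read, 6 (30%) were lower and 0 higher. The lower ones included the mitochondrial creatine kinase genes *ckmt2a* and *ckmt2b* and the creatine transporter gene *slc6a8*. Of 71 nuclear receptor genes, 8 (11.3%) were listed as lower, among them the vitamin D receptor genes *vdra* and *vdrb* and the thyroid receptor gene *thrab*. *nr1d4b*, a Rev-erb gene, was the 1 higher receptor gene.

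Transport, sterol and signalling genes completed the lower list. Of the solute carrier genes, 25 were in the lower list and 7 in the higher list, which is 24 (5.33%) and 7 (1.56%) of 450 in the gene-name table. The sodium-calcium exchanger genes *slc24a1*, *slc24a2*, *slc24a4a*, *slc24a4b* and *slc8a2b* and the chloride extruder *slc12a5a* were lower. The higher ones included *slc7a7* and *slc43a3b*. Of 30 genes of cholesterol and lipid synthesis, 7 (23.3%) were in the lower list and 0 in the higher list, including *srebf1*, a master regulator of lipid genes, *hmgcs1*, *sqlea*, *fdft1* and *dhcr7*. *fdft1* had 2.62 FPKM at 4 dpi without cyclopamine and 33.8 FPKM in uninjured retina. The protein kinase families, as matched by symbol, gave 26 lower genes and 0 higher, with 23 of them among 270 in the gene-name table (8.52%). The match took in MAPK8IP1 and *cdk5r2b*, genes of kinase-binding proteins. It missed other kinase genes, and of these *ttk*, *pkz* and *met* were listed as higher, so the direction holds for the matched symbols only. *camkk1b* had 21.5 FPKM at 4 dpi without cyclopamine and 184.5 FPKM in uninjured retina. Of 44 clock genes, 7 (15.9%) were in the lower list and 3 (6.82%) in the higher list. *per1a*, *per2*, *cry1aa*, *cry1ab*, *cry-dash*, *nr1d1* and *bhlhe41* were lower. *aanat2*, the melatonin-rhythm enzyme gene, *nfil3* and *nr1d4b* were higher. The hour of collection is not given in the sources used here.

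Genes of short RNAs were in both lists, with levels that are hard to read because such genes are about as short as a typical sequenced fragment. All 5 microRNA genes listed were lower: *dre-let-7a-3*, *dre-let-7g-1*, *mirlet7a-1*, *dre-mir-125b-1* and *dre-mir-96*. Of 18 *let-7* genes in the gene-name table, 3 (16.7%) were listed. Of 316 other microRNA genes there, 2 (0.633%) were listed, a share below the 2.26% of all identifiers in the lower list. *let-7* microRNAs repress growth and progenitor genes and are held down by Lin28. *dre-let-7g-1* was listed at 0 FPKM at 12 hr post-injury (hpi) without cyclopamine and at 687.9 FPKM in uninjured retina, and *dre-mir-96* was listed at 0 FPKM at 4 dpi without cyclopamine and at 22.8 FPKM in uninjured retina. These values are per annotated microRNA gene or transcript, and mature microRNAs were not measured separately. Genes of the signal recognition particle RNA gave 11 higher identifiers and 1 lower, but only 1 (1.32%) in each direction is among the 76 in the gene-name table. Those of 5S rRNA gave 1 higher and 7 lower, which is 1 (0.0514%) and 6 (0.308%) of 1947 in the gene-name table. These shares are below the 2.04% and 2.26% of all identifiers. Both are families of near-identical copies that share reads.

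Some groups of members sit side by side in the genome or are duplicates of each other. Along the gene order of RefSeq assembly GRCz12tu, used here for neighbours only, 5 of 5 adjacent genes on chromosome 9 were listed as higher, namely *crygm1*, *zgc:153846*, *crygm2c*, *crygmxl1* and *crygm2b*. On chromosome 7, *jac6*, *ntrnl3*, *jac9* and *jac8* were 4 adjacent higher genes, and on chromosome 3 the ferritin genes *fthl27*, *fthl28* and *fthl31* were 3 of 4. Each of these runs holds similar copies whose reads can be shared. Other runs held genes of unlike names, such as *ctsba*, *cenpf* and *smyd2a* on chromosome 17 in the higher list. The lower list had runs on chromosomes 1, 5, 15 and 22, such as *brinp1*, *gpsm1b* and *lhx3* on chromosome 5. Of 3240 pairs of genes whose RefSeq symbols differ only in a final a or b, 331 had at least 1 member of the pair listed. Both members were listed as higher in 7 pairs, such as *hmgb2a* and *hmgb2b*, and both as lower in 13, such as *syt7a* and *syt7b*. In 3 pairs the members were in opposite lists: *akap12b*, *ndrg3b* and *tpm4a* were higher while *akap12a*, *ndrg3a* and *tpm4b* were lower. In 133 pairs 1 member was higher and the other was in no list, and in 171 pairs 1 was lower and the other in no list. Most such pairs are duplicates from fish genomes, but some, such as *ppargc1a* and *ppargc1b*, are different genes. At the overall shares of listed genes, some pairs would have a listed member whether or not the members are duplicates. Whether the counts of pairs differ from those shares was not tested.

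The 2 lists differed in the uninjured level of the members that have one, in the direction that the calls themselves favour. Each call set an injured library against this same uninjured library. A low uninjured level therefore favours a call as higher, and a high level a call as lower. Whether the lists differ beyond this selection was not tested. A gene-level value from the 4 dpi tables was available for 354 of 643 higher genes (55.1%) and 261 of 735 lower genes (35.5%). The uninjured median was 2.15 FPKM for the higher genes, of which 71 had at least 10 FPKM, and 27.7 FPKM for the lower genes, of which 210 did. In uninjured retina 54 higher genes and 0 lower genes were listed at 0 FPKM. Genes have such a value only where the authors also called them at 4 dpi without cyclopamine, and a gene at 0 cannot be listed as lower, so these medians describe the members with a value and not the whole lists. The uninjured values came from the same library: of 147 members with a value in the tables of both times, 100 had an equal uninjured FPKM, within a relative tolerance of 1e-05, and the 12 hpi values are per transcript.

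**Figure D3:**
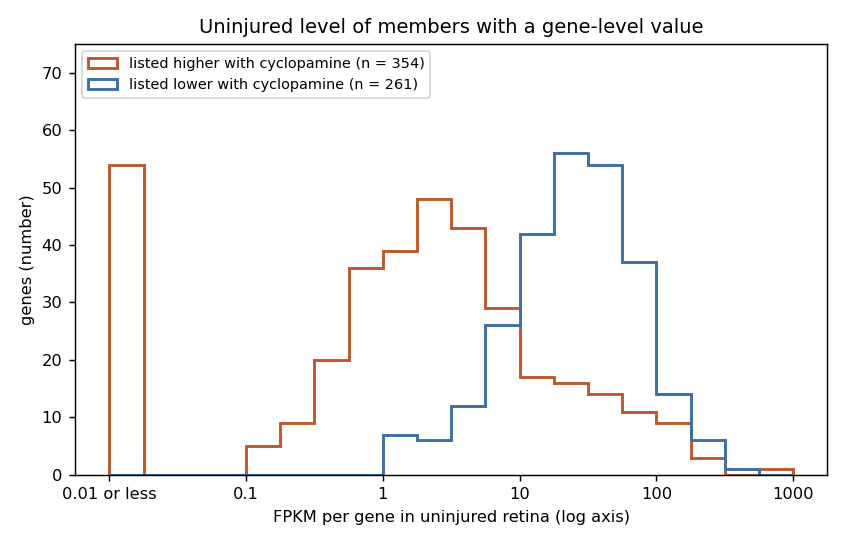
Number of members by FPKM per gene in uninjured retina (log axis, with values of 0.01 or less in the first bin), for the 354 genes listed as higher and the 261 listed as lower with cyclopamine that have a gene-level value. The median is 2.15 FPKM for the higher and 27.7 FPKM for the lower genes. The calls were made against this same uninjured library, so the selection itself favours a gap in this direction.

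The members of the 2 lists also differed in gene span, here the length of the GRCz10 locus that a table gives. Such a locus may cover more than 1 gene. The longest span, 476.4 kb, was the same for the higher genes and for 12 hpi higher genes in no cyclopamine list. The median was 10.3 kb for 427 higher genes (66.4% of the list) and 33.0 kb for 301 lower genes (41.0%). Genes with a span over 100 kb made up 3.98% of the higher and 22.3% of the lower genes with a span. With fewer than 80% of the members having a span, a check of span over the whole lists is void. Genes of the 4 dpi tables that are in no cyclopamine list differed in the same direction, with medians of 10.2 kb for 536 higher and 57.3 kb for 312 lower genes.

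**Figure D4:**
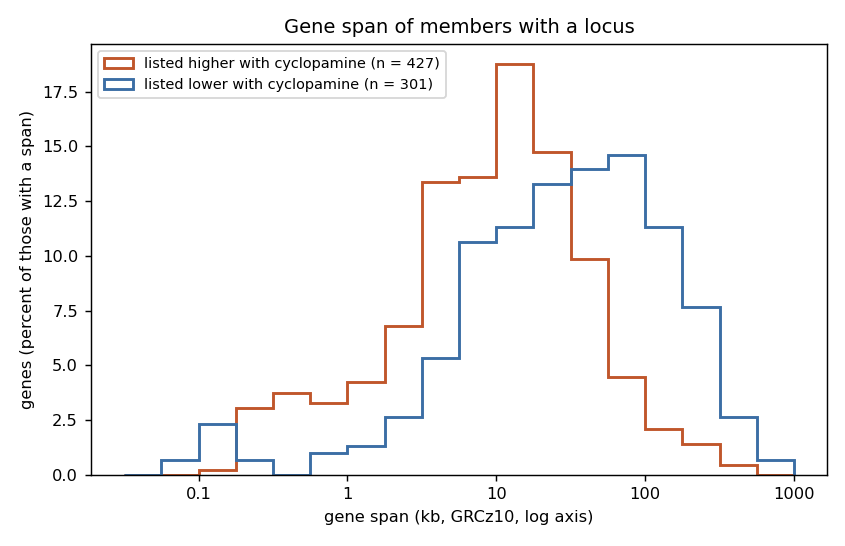
Share of genes by gene span in kb (GRCz10, log axis) for the 427 genes listed as higher and the 301 listed as lower with cyclopamine that have a span. The median is 10.3 kb for the higher and 33.0 kb for the lower genes.

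Over the 73 families defined by symbol, 34 had at least 3 higher genes, 28 had at least 3 lower genes, and 4 had no gene in either list. The 12 genes in both directions were *arr3b*, *cnp*, *fabp3*, *fra10ac1*, *hnrnpl2*, *nadka*, *p4ha2*, *pop5*, *rc3h1b*, *SEPTIN2*, *snap25a* and *stxbp4*. *snap25a* codes for a SNARE protein of synaptic release, *fabp3* for a fatty acid binding protein, *p4ha2* for a collagen prolyl hydroxylase subunit and *pop5* for a subunit of RNase P. *SEPTIN2* was written as a date in the lists, as spreadsheet software does, and was named from its identifier. In the lists, 11 higher and 9 lower identifiers had more than 1 row. Lists with 1 row per gene would not hold the same gene in both directions, and what a row stands for is not given in the sources used here.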

How the data were processed

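Whole-retina RNA was measured in 4 libraries, 1 per condition. Per the labels, RNA was taken in TRIzol and libraries were made by standard Illumina protocols, and the submitters' processing notes name Bowtie2 2.2.2, TopHat2 2.1.0, Cufflinks 2.2.1 and build GRCz10, with no role given. For cyclopamine, the deposited lists hold identifiers and symbols only. For the other injured libraries, the deposited tables give FPKM values of the authors, per transcript at 12 hpi and per gene at 4 dpi, each beside uninjured retina. The deposited log2 fold changes, p-values and q-values of the authors' tests were not used. The depth of the libraries is unknown, so no interval is given.

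Rows were reduced to unique identifiers and matched by symbol to 73 families and 29 gene lists, 4 of which were drawn up after the lists were read, with pandas 2.3.3 in Python 3.11.15. The other lists and the members were chosen with earlier results of these data known. RefSeq symbols matched 576 higher and 538 lower genes. In the gene-name table, which supplies denominators, are 597 of the higher and 660 of the lower identifiers. Genes named were those of the lists, those the study names, examples from families with at least 3 listed members, and genes in both directions. The others, *mrpl22*, COX7A2, HBZ, *slc43a3b*, the duplicate pairs and the neighbour runs, were chosen after the lists were seen. No test or enrichment was run. Alternatives counted every row, symbols, or annotated or protein-coding genes only. Counting was tested on simulated data. Protein lengths and promoter motifs were not analysed here, and gene span was described in their place. Some genes whose calls at 4 dpi were opposite once cyclopamine was added are not reported here by name.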

Additional observations from a re-analysis of the deposited data

Results flagged for a closer look

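The lists at 4 dpi with and without cyclopamine, each against the same uninjured library, put a few genes in opposite directions. With the genes in both cyclopamine directions set apart, 3 genes were listed as lower with cyclopamine and as higher at 4 dpi without it, and 2 genes were listed as higher with cyclopamine and as lower without it. These were singled out because the calls of the 2 conditions point in opposite ways, and the difference was not tested. The first set includes *prdx1*, a peroxiredoxin gene, with 24.5 FPKM at 4 dpi without cyclopamine and 3.51 FPKM in uninjured retina. Its level with cyclopamine is not given in the lists. At 12 hpi, its listed transcript was lower than in uninjured retina.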

How the results depend on the processing

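Counts of listed genes stayed within 1.5 times of those reported when every row was counted (666 higher, 758 lower), when genes in both directions were counted in each (655 and 747), by symbol (643 and 740), and for annotated identifiers only (585 and 648). Over the counts of genes, families, levels and spans, 20 of 22 alternatives stayed within 1.5 times, the measure used because there are no replicates. The other 2 concern the uninjured median of the higher genes. It was 1.196 FPKM with the largest transcript-level value of the 12 hpi tables, which hold other genes, and 4.29 FPKM with a minimum of 1 FPKM, which removes low genes by construction. Single families moved in 7 of 186 alternatives. By the symbol in the list alone, histones gave 5 higher genes and the keratin match gave 4. Restriction to protein-coding genes left 4 higher histones and 3 lower chemokine and interleukin genes, and it removed the short RNA families. The median span of lower genes was 46.2 kb without provisional symbols. Promoter motifs, protein length and a pseudocount on log2 ratios were not run. No paired analysis was possible because a condition holds only 1 library. The unknown depth limits what can be said of genes in no list.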
